A study of Sus scrofa domesticus with 30 samples.

Results

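The respiratory chain subunits encoded in the nuclear genome were followed in the endometrium, the lining of the uterus, of gilts (young female pigs). Members were the mRNA entries whose symbol begins with NDUFA, NDUFB, NDUFC, NDUFS or NDUFV (assembly factors NDUFAF left out), is SDHA, SDHB, SDHC or SDHD, or begins with UQCR, with COX4 to COX8, or with ATP5. This rule matched 71 of 28224 gene models. The 69 subunits above the table's floor value of 1 in at least 7 libraries were tested, out of 16819 such genes: 39 of complex I, 4 of complex II, 2 of complex III, 7 of complex IV and 17 of complex V. The other 2 entries were COX8H, named for the heart form of a complex IV subunit (chromosome 2, 69199 to 70730, Sscrofa11.1), and a second NDUFA4 entry (chromosome 13, 30448569 to 30449050), both at the floor in every library. COX4I1, UQCRC1 and the subunits encoded in mitochondrial DNA were not analysed here.

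The samples were 7 low iCrit and 8 high iCrit gilts on pregnancy day 13, with 1 poly(A) mRNA library each. The immunocrit (iCrit), measured in blood on the first day of life, reflects the immunoglobulin a piglet absorbed from colostrum, and the study compared adults that had been low with adults that had been high. All were crossbred (Landrace, Yorkshire and Duroc in the labels) and had received penicillin and iron dextran as newborns. They were watched for estrus from 170 days of age and bred by artificial insemination after at least 1 normal cycle, and the study had removed 1 more low iCrit animal for not being pregnant. Tissue came from the middle of the uterine horn. Values are the authors' normalized values on a linear scale without a unit, so levels of different genes are not compared. Differences are low minus high iCrit of log2(value + 1), which understates the change of low genes. Means stand with their SD over 7 low and 8 high iCrit animals, and differences with the SE that limma gives.

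Complexes I to IV pass electrons from NADH and succinate through coenzyme Q and cytochrome c to oxygen, and complexes I, III and IV pump protons as they do so. Complex V, the ATP synthase, uses the returning protons to make ATP. The subunits described here are made in the cytosol and imported, and in complexes I, III, IV and V they are assembled with subunits encoded in mitochondrial DNA; complex II is encoded in the nucleus alone.

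No subunit passed the test between low and high iCrit gilts: limma with Benjamini-Hochberg adjustment called 0 of 69 subunits and 0 of 16819 genes, a background of 0%, with a smallest adjusted p of 0.672. At an unadjusted p under 0.05, 14 of 69 subunits were lower in low iCrit gilts and 0 were higher, where 4.43% of all genes were lower and 2.71% were higher. The log2 difference was negative for 67 of 69 subunits, against 51.7% of all genes. The median difference was -0.23 over the 69 subunits and -0.01 over all genes tested. In no subunit did the groups separate (0 of 69, against 0.0595% of all genes with every low iCrit value below every high iCrit value). These shares describe the list; subunits of a tissue vary together across animals and are not independent replicates.

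High iCrit replicate 7 and low iCrit replicate 2 stood apart in these genes. Differences without 1 or both of them are given for most named subunits and for the medians of complexes and pathway lists. Medians by role, of cell type markers and of ribosomal proteins are given with all libraries only. High iCrit replicate 7 was the highest of the 15 libraries in 63 of 69 subunits, and low iCrit replicate 2 was the lowest in 48. The first of these libraries had the fewest estimated reads (23.7 M), and the second had 31.0 M. Both also lay at opposite ends of the second principal component of all genes (14.2% of the variance), with scores of -54.6 for high iCrit replicate 7 and 79.0 for low iCrit replicate 2. Estimated depth was 41.3 ± 13.2 M reads in low against 34.6 ± 5.23 M reads in high iCrit animals (SD, exact two-sided permutation p = 0.220 over all 6435 splits). High iCrit replicate 8 stands apart by conceptus trophoblast markers, most by IFNG, at 2803 there against 1 to 203 in low iCrit gilts. IFNG made up most of that library's marker sum of 3271. GATA3 (278) and TFAP2C (96.3) were also at their highest of the 15 libraries there. ELF5 (33.9) and CYP19A1 (57.1) were not, and the trophoblast markers CYP19A3 and GCM1 were at the floor in it. The mean over the 7 markers was highest in this library, at 1.43 (log2 from the mean of the 15 libraries).

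**Figure D1:**
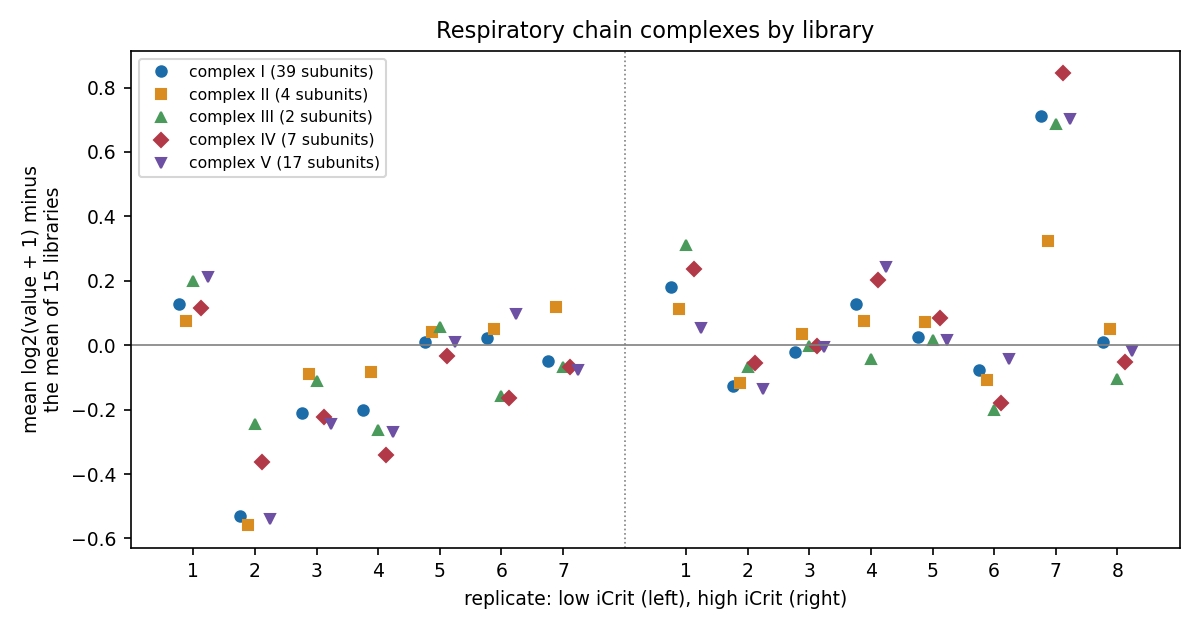
Mean log2(value + 1) of the tested subunits of each complex in every library, as the difference from each gene's mean over the 15 libraries (vertical axis, log2); low iCrit libraries are on the left and high iCrit libraries on the right of the dotted line. High iCrit replicate 7 is highest in all 5 complexes, at 0.71 for complex I and 0.33 for complex II, and low iCrit replicate 2 is lowest in 4 of them; in complex III low iCrit replicate 4 is lowest.

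The core subunits of complex I carry the flavin and iron-sulfur centres that move electrons from NADH toward coenzyme Q. Of the 7 measured, 6 had lower means in low iCrit gilts and NDUFS1 had a higher mean, with a median difference of -0.25. NDUFV1 (chromosome 2, 4958508 to 4964211), which binds NADH and the flavin, ran from 1770 through a median of 2641 to 3298 in low iCrit gilts and from 2634 through 3040 to 3536 in high iCrit gilts. Its 3 lowest values were all in low iCrit gilts, but the groups overlapped: low iCrit replicate 6 lay above 6 of the 8 high iCrit gilts. The difference was -0.31 ± 0.12 (SE; limma adjusted p = 0.672).

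NDUFS1 (chromosome 15, 109413726 to 109451813), the large iron-sulfur subunit, differed in the opposite sense. It ran from 2738 through 3491 to 3877 in low iCrit gilts and from 2806 through 2964 to 3621 in high iCrit gilts. The difference was 0.16 ± 0.09 (SE; limma adjusted p = 0.751). The lowest of all 15 values was low iCrit replicate 2, and without that library the difference was 0.22, at an unadjusted p under 0.05. NDUFS8 (-0.32), an iron-sulfur subunit, was also at an unadjusted p under 0.05, on the low side.

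The accessory subunits surround this core and serve its assembly and stability. The 13 NDUFA members had the most negative median of the role groups, -0.31 (12 of 13 lower), and the 13 NDUFB and NDUFC members -0.20 (13 of 13 lower). The 4 accessory NDUFS and NDUFV members had -0.24. NDUFA7 (chromosome 2, 70954844 to 70961717), an accessory subunit of the matrix arm, had the most negative difference of all 69. It ran from 1008 through 1315 to 1668 in low iCrit gilts and from 1317 through 1669 to 3055 in high iCrit gilts, with a difference of -0.46 ± 0.16 (SE; limma adjusted p = 0.672). All 7 low iCrit values lay below the high iCrit median, and the 3055 of high iCrit replicate 7 was far above the next value of 2077. Without that library the difference was -0.35, and without both libraries that stood apart it was -0.29.

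NDUFB9 (chromosome 4, 15105305 to 15113281), a membrane-arm subunit, ran from 2099 through 2530 to 2824 in low iCrit gilts and from 2550 through 2888 to 5341 in high iCrit gilts. All 7 low iCrit values were again under the high iCrit median, and high iCrit replicate 7 exceeded the next value, 3583, by a wide gap. The difference was -0.34 ± 0.14 (SE; limma adjusted p = 0.672) with all libraries and -0.19 without both libraries. NDUFA5, an accessory subunit of the matrix arm, averaged 1626 ± 363 in low against 1553 ± 203 in high iCrit animals, and with NDUFS1 it was 1 of the 2 subunits with a positive difference (0.04). NDUFC1 was closest to 0, at 700.4 ± 121 in low against 698 ± 101 in high iCrit animals.

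NDUFA4 is named after complex I but in human cells belongs to complex IV, and NDUFA4L2 is its relative, known in human cells as a hypoxia-induced gene. NDUFA4 averaged 4236 ± 807 in low against 4652 ± 900.3 in high iCrit animals, a difference of -0.14 ± 0.14. NDUFA4L2 averaged 152 ± 72.7 in low against 163 ± 75.4 in high iCrit animals, and its SD over the 15 libraries (0.58 on the log2 scale) was the largest of the 69. Its log2 ratio to NDUFA4 was -4.90 ± 0.54 in low against -4.93 ± 0.67 in high iCrit animals, less than the spread within either group. The ratio is not per length and serves only to compare animals.

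Complex II, the succinate dehydrogenase that also works in the tricarboxylic acid cycle, had a median difference of -0.11, and none of its 4 subunits was under an unadjusted p of 0.05. SDHA (chromosome 16, 79838442 to 79862956), the flavoprotein that oxidises succinate, ran from 3472 through 5564 to 6495 in low iCrit gilts and from 5136 through 6048 to 6615 in high iCrit gilts. Apart from low iCrit replicate 2, at 3472, no gilt was under 5136. The difference was -0.15 ± 0.12 with all libraries and -0.05 without low iCrit replicate 2.

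SDHB, the iron-sulfur subunit, averaged 2526 ± 383 in low against 2651 ± 490 in high iCrit animals. Its difference was -0.06 with all libraries and 0.01 without low iCrit replicate 2. The membrane anchors were SDHC, at 2377 ± 415 in low against 2748 ± 428 in high iCrit animals (-0.22 ± 0.13), and SDHD. SDHD (chromosome 9, 39790654 to 39803602) ran from 2136 through 2727 to 3184 in low iCrit gilts and from 2505 through 2844 to 3155 in high iCrit gilts. Its SD over the 15 libraries was the smallest of the 69 (0.16 on the log2 scale), the groups overlapped throughout, and the difference of -0.04 ± 0.09 became 0.02 without low iCrit replicate 2. The median of the complex was -0.02 without low iCrit replicate 2 and 0.01 without both libraries that stood apart.

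**Figure D2:**
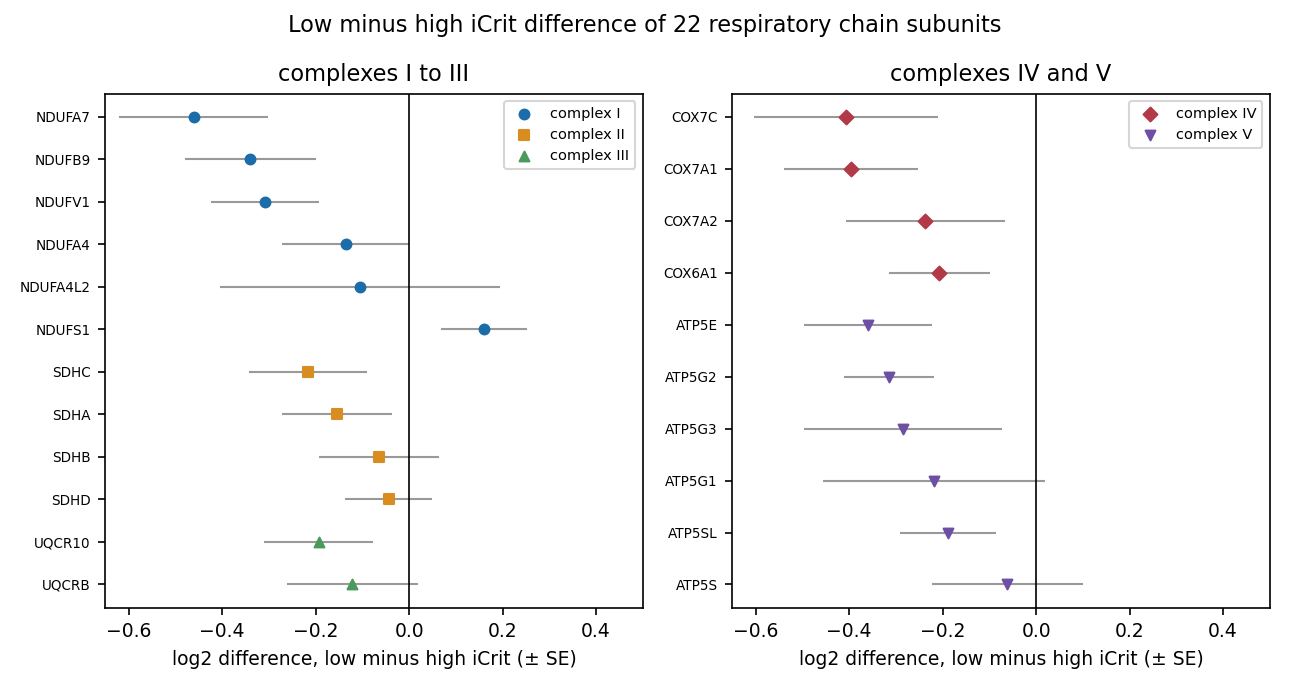
Log2 difference, low minus high iCrit, of the 22 subunits named by rule (points) with their standard errors from limma (lines), complexes I to III on the left and complexes IV and V on the right; the vertical line marks 0. All points but NDUFS1 (0.16) lie left of 0, the farthest being NDUFA7 (-0.46), and none passed the adjusted threshold.

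Complex III, which passes electrons from coenzyme Q to cytochrome c, was represented by 2 small accessory subunits. UQCR10 (chromosome 14, 46783340 to 46786140) averaged 1625 ± 133 in low against 1886 ± 410 in high iCrit animals, a difference of -0.19 ± 0.12 (limma adjusted p = 0.759). UQCRB (chromosome 4, 40403272 to 40409080), which lies near the coenzyme Q site, averaged 1952 ± 349 in low against 2143 ± 513 in high iCrit animals, a difference of -0.12 ± 0.14. Both were closer to 0 without high iCrit replicate 7, at -0.11 for UQCR10 and -0.03 for UQCRB.

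Complex IV, the cytochrome c oxidase, had 7 measured subunits, all with negative differences (median -0.24). COX7A1 (chromosome 6, 45519225 to 45520721), the form of subunit VIIa known from heart and skeletal muscle, was the 1 subunit of this complex at an unadjusted p under 0.05. It ran from 516 through 675 to 764 in low iCrit gilts and from 605 through 842 to 1116 in high iCrit gilts. All 7 low iCrit values lay below the high iCrit median, and 4 of 8 high iCrit values lay above every low iCrit value. The difference was -0.40 ± 0.14 (SE; limma adjusted p = 0.672).

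COX7A1 depended less on the 2 libraries than the other named subunits of its complex. Low iCrit replicate 2, lowest in most subunits, held the highest COX7A1 value of its group. Leaving out high iCrit replicate 7 gave -0.34, leaving out low iCrit replicate 2 gave -0.44, and leaving out both with high iCrit replicate 8 gave -0.45. Skeletal muscle markers were near the floor: 3 of the 7 entries of that list passed the filter, and their sum was 19.6 to 49.9 in low against 19.0 to 82.0 in high iCrit animals. Smooth muscle markers had 5 of 7 members lower (median -0.09), but SYNPO2, with the smallest p of that list, was higher (0.31). Their sums were 3816 to 16722 in low against 3527 to 10208 in high iCrit animals. Low iCrit replicate 6 had the highest smooth muscle mean of the 15 libraries (1.11, log2 from their mean) and the lowest COX7A1 value (516). The high iCrit libraries were mixed. Replicates 1, 3 and 4 had smooth muscle means of 0.49, 0.37 and 0.22 and COX7A1 values of 1005, 932 and 1018. Replicates 2, 5 and 6 had means of -1.11, 0.21 and 0.60 and values of 752, 705 and 727. Replicates 7 and 8 had means of -0.24 and -0.35 and values of 1116 and 605. The part of smooth muscle in the COX7A1 values was not tested.

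COX7A2 (chromosome 1, 90696746 to 90703407), the form found in most tissues, ran from 1578 through 2163 to 3221 in low iCrit gilts and from 2070 through 2304 to 4584 in high iCrit gilts. Its difference of -0.24 ± 0.17 was -0.04 without both libraries that stood apart. The log2 ratio of COX7A1 to COX7A2 was -1.79 ± 0.45 in low against -1.63 ± 0.33 in high iCrit animals, so the groups differed by less than their spread. COX7C, a small structural subunit, averaged 3889 ± 1047 in low against 5202 ± 1678 in high iCrit animals (-0.41 ± 0.20, limma adjusted p = 0.703). COX6A1, the form of subunit VIa outside heart and skeletal muscle, averaged 5615 ± 583 in low against 6525 ± 1124 in high iCrit animals (-0.21 ± 0.11). COX5B, COX6B and COX6C lay at -0.30, -0.24 and -0.24. Without both libraries that stood apart they lay at -0.10, -0.07 and -0.08.

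In complex V the 17 entries all had negative differences, with a median of -0.23. By role the median was -0.15 for the 5 subunits of F1, whose head makes ATP. It was -0.29 for the 3 c-ring genes, whose proteins turn with the proton flow. Medians were -0.24 for the 4 of the peripheral stalk, which holds the head still, and -0.24 for the 3 small membrane subunits. Among the F1 subunits, ATP5A1 and ATP5B, the alpha and beta subunits, had -0.15 and -0.15, and ATP5E, the epsilon subunit, had -0.36. Without both libraries that stood apart, ATP5A1 had 0.03, ATP5B 0.05 and ATP5E -0.30. ATP5E ran from 4033 through 5709 to 6419 in low iCrit gilts and from 5269 through 6707 to 9786 in high iCrit gilts. Every low iCrit value was under the high iCrit median (difference -0.36 ± 0.14, SE; limma adjusted p = 0.672).

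ATP5G1, ATP5G2 and ATP5G3 encode the same mature c subunit behind different import sequences, as known from other mammals. ATP5G2 (chromosome 5, 18871025 to 18879933) had the smallest p of the 69. It ran from 3799 through 4176 to 4777 in low iCrit gilts and from 4230 through 5303 to 6196 in high iCrit gilts. Every low iCrit value was below the high iCrit median, and 6 of 8 high iCrit values lay above every low iCrit value; high iCrit replicates 2 and 8 fell within the low iCrit range. The difference was -0.31 ± 0.10 (SE; limma adjusted p = 0.672), -0.28 without high iCrit replicate 7 and -0.26 without both libraries.

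ATP5G3 (chromosome 15, 81091037 to 81094297) ran from 1980 through 3479 to 5521 in low iCrit gilts and from 3638 through 3953 to 8245 in high iCrit gilts. Low iCrit replicate 2 held the lowest value and high iCrit replicate 7 the highest, well above the next high iCrit value of 4630. Its difference was -0.29 ± 0.21 with all libraries and -0.01 without these 2. ATP5G1 averaged 1555 ± 587 in low against 1775 ± 581 in high iCrit animals (-0.22 ± 0.24). The log2 ratio of ATP5G2 to ATP5G3 was 0.23 ± 0.40 in low against 0.26 ± 0.32 in high iCrit animals, and that of ATP5G1 to ATP5G3 was -1.30 ± 0.13 in low against -1.37 ± 0.32 in high iCrit animals. Neither ratio differed between the groups by more than its spread.

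ATP5S, known as coupling factor B, averaged 551 ± 105 in low against 579 ± 127 in high iCrit animals (-0.06 ± 0.16). ATP5SL, named after ATP5S but known in human cells to take part in complex I assembly, averaged 2506 ± 339 in low against 2848 ± 345 in high iCrit animals (-0.19 ± 0.10, limma adjusted p = 0.740).

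**Figure D3:**
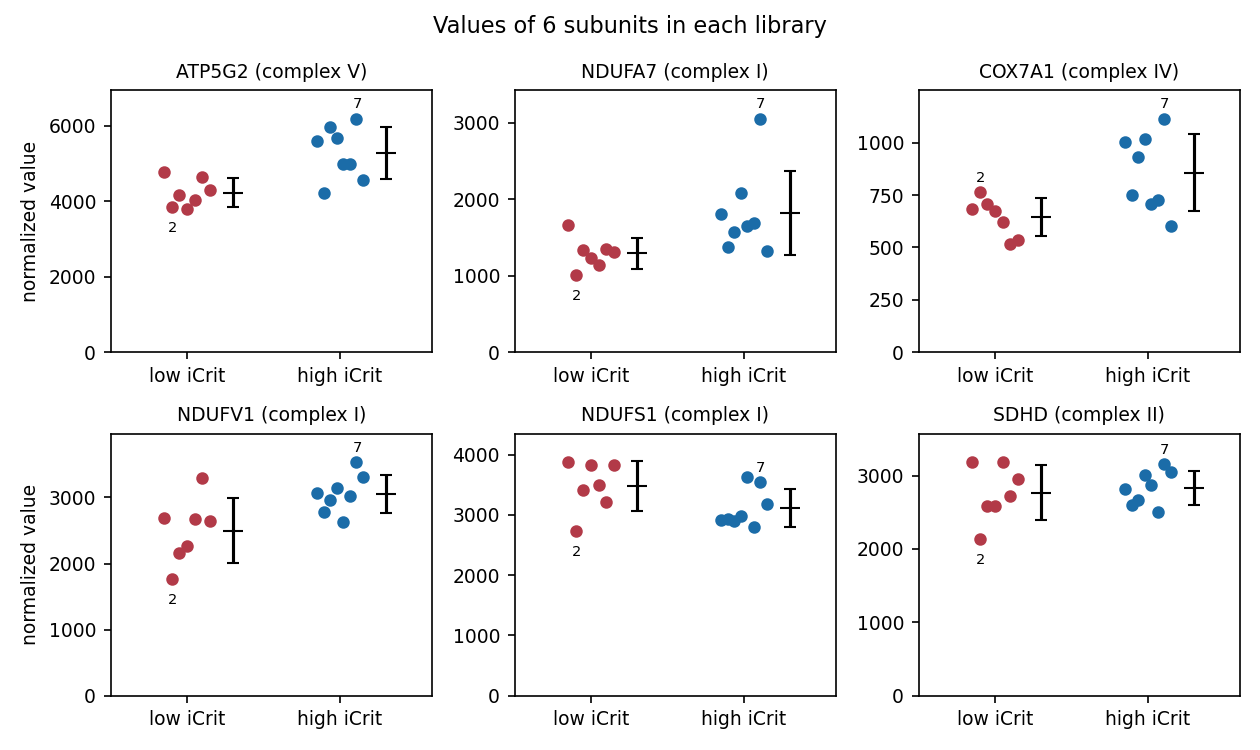
Normalized value (linear, vertical axis from 0) of 6 subunits in each low iCrit (left, 7 gilts) and high iCrit (right, 8 gilts) library; bars are the group mean ± SD, and the labels 2 and 7 mark replicate 2 of the low and replicate 7 of the high iCrit group. ATP5G2, NDUFA7 and COX7A1 have all 7 low iCrit values under the high iCrit median, NDUFS1 has 6 of 7 above it, and SDHD overlaps throughout.

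In each of the 2 libraries that stood apart the complexes lay to the same side, but these subunits had also singled the libraries out. Elsewhere the complexes did not always do so. Low iCrit replicate 6 had means of 0.10 for complex V and -0.16 for complex IV (log2 from the mean of the 15 libraries). In high iCrit replicate 7, all 69 subunits lay above the median of the other high iCrit libraries, from 0.15 for SDHA to 1.28 for NDUFB1, with a median of 0.72; over all genes the median was -0.002. By complex the medians were 0.73 for I, 0.30 for II, 0.74 for III, 0.97 for IV and 0.55 for V. In low iCrit replicate 2, 65 of 69 lay below the median of the other low iCrit libraries, with a median of -0.45 against -0.014 over all genes. NDUFV3, an accessory subunit, was lowest there at -0.999, and the 4 above were NDUFB3, NDUFC1, ATP5E and COX7A1, the last at 0.24. Complex II had the most negative complex median in low iCrit replicate 2 (-0.59) and the smallest in high iCrit replicate 7.

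**Figure D4:**
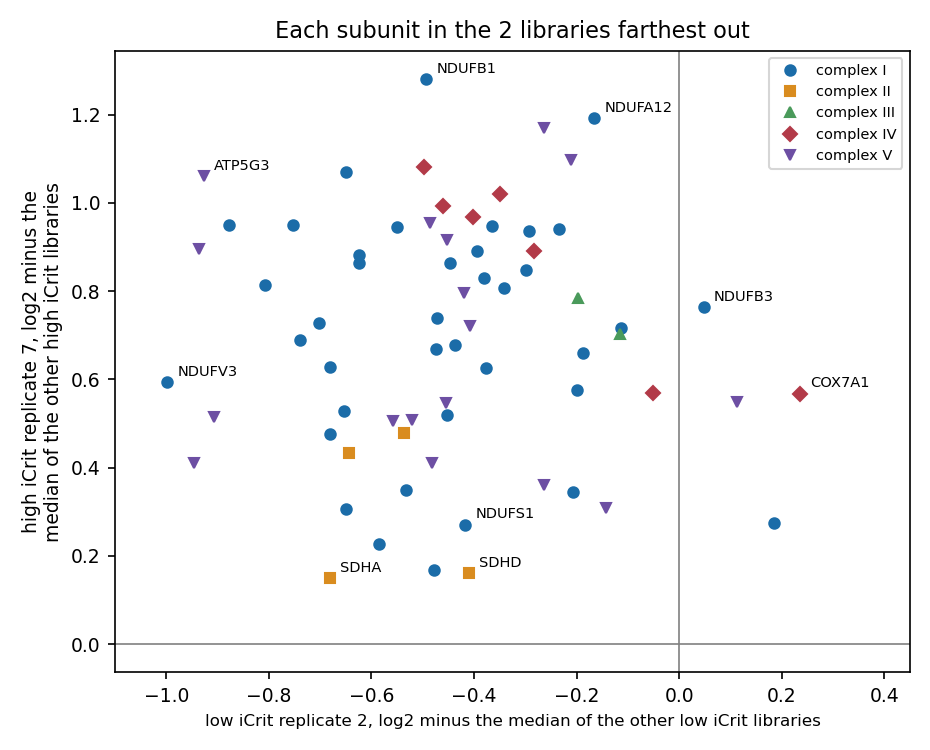
Each of the 69 subunits in low iCrit replicate 2 (horizontal axis) and in high iCrit replicate 7 (vertical axis), as the log2 difference from the median of the other libraries of its own group; symbols give the complex. All points lie above 0 on the vertical axis and 65 lie left of 0 on the horizontal axis; SDHA has the lowest vertical value, 0.15, and NDUFB1 the highest, 1.28.

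The median over the 69 subunits was -0.16 without low iCrit replicate 2 (63 lower, 6 at an unadjusted p under 0.05), -0.13 without high iCrit replicate 7 (63 lower, 6 at that p) and -0.07 without both (52 lower, 5 at that p); the last fit was chosen after seeing the data. Its complex medians were -0.07 for I, 0.01 for II, -0.04 for III, -0.10 for IV and -0.07 for V. NDUFA7, COX7A1, ATP5E and ATP5G2 were the 4 that stayed lower at an unadjusted p under 0.05 in that fit, and NDUFS1 was the 1 that was higher (0.24). Other named subunits had -0.20 (NDUFV1), -0.08 (SDHC), -0.10 (UQCR10), 0.01 (UQCRB), -0.14 (COX6A1), -0.26 (COX7C), 0.02 (ATP5G1) and -0.07 (ATP5SL) there. With estimated reads as a covariate the median was -0.16, with 63 lower and 4 at that p.

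**Figure D5:**
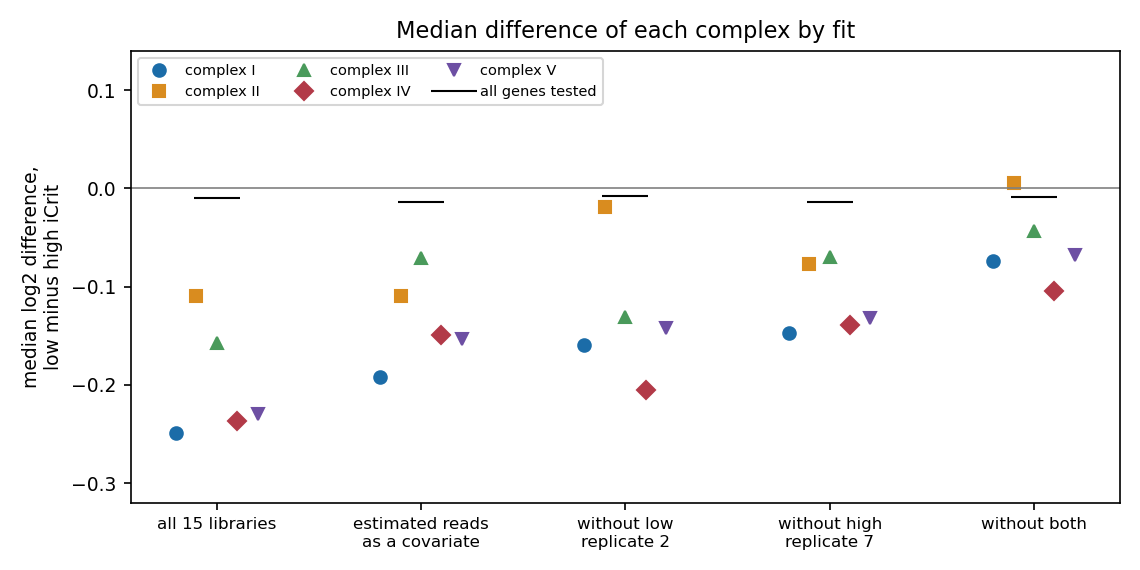
Median log2 difference, low minus high iCrit, of the subunits of each complex (symbols) and of all genes tested (bars) in 5 fits; the last leaves out low iCrit replicate 2 with high iCrit replicate 7. The median of complex I is -0.25 with all 15 libraries and -0.07 without both, while that of all genes stays near -0.01.

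Some lists of cell type markers also had most members to 1 side, with overlapping values, while leukocyte markers had 3 lower and 4 higher (median 0.03). Epithelial markers were lower in 7 of 7 members (median -0.16), with sums of 86440 to 158759 in low against 111813 to 168379 in high iCrit animals, the lowest in low iCrit replicate 2. Stromal fibroblast markers were higher in 6 of 7 (median 0.27), with sums of 191607 to 602115 in low against 163471 to 287146 in high iCrit animals. Their mean was highest in low iCrit replicate 6, at 0.93 (log2 from the mean of the 15 libraries). The next low iCrit library, replicate 5, had 0.25, and replicates 1, 2 and 3 had -0.12, -0.03 and -0.35. No marker was called, and their part in the subunit values was not tested. In tissue samples such as these, fewer cells of a type and less RNA per cell cannot be told apart. Ribosomal proteins of the cytosol had a median of -0.29 (82 of 82 lower) and those of mitochondria -0.14 (61 of 74 lower), and high iCrit replicate 7 was the highest library for both lists, with means of 0.72 and 0.51.

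The rest of the pathway had smaller medians, again with 0 genes called by limma in any list. Electron carriers and subunits outside the rule had 7 of 8 lower (median -0.14). Of these HIGD2A, a complex IV factor, had the smallest p, at 1116 ± 221 in low against 1435 ± 281 in high iCrit animals (-0.36, limma adjusted p = 0.672). Assembly factors had 23 of 33 lower (-0.11), led by SDHAF2, which helps attach flavin to SDHA, at 1079 ± 138 in low against 1348 ± 171 in high iCrit animals (-0.32, limma adjusted p = 0.672). The tricarboxylic acid cycle and pyruvate dehydrogenase had 13 of 18 lower (-0.09), led by SUCLG1, a succinyl-CoA ligase subunit (-0.32, limma adjusted p = 0.672). Coenzyme Q synthesis had 10 of 13 lower (-0.10), with COQ9 at -0.15.

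Mitochondrial import had 19 of 24 lower (-0.16), led by TOMM7, a small part of the outer membrane translocase, at 1392 ± 136 in low against 1836 ± 406 in high iCrit animals (-0.38, limma adjusted p = 0.672). Glycolysis had 15 of 20 lower (-0.14), led by LDHB, a lactate dehydrogenase chain, which has more than 1 entry in the table (-0.51, limma adjusted p = 0.672). Regulators of mitochondrial biogenesis were the 1 list with a positive median (0.08), with 15 of 20 higher. GABPB2, part of the GA-binding protein family, had its smallest p, at 1356 ± 198 in low against 1160 ± 134 in high iCrit animals (0.22, limma adjusted p = 0.703). TFAM, which packages mitochondrial DNA and activates its transcription, averaged 899 ± 151 in low against 741 ± 172 in high iCrit animals (0.30, limma adjusted p = 0.738). With both libraries that stood apart left out, the medians were 0.01 for the carriers, -0.05 for assembly factors, 0.01 for the tricarboxylic acid cycle, -0.03 for coenzyme Q synthesis, -0.07 for import, -0.05 for glycolysis and 0.09 for the regulators.

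Reads shared between near-identical entries can be split by the authors' counting, and subunits of this kind have processed pseudogenes. In 48 of the 69 subunits every value was a whole number of reads in every library (within 0.05 reads), with 47 lower and a median of -0.24. In 10 subunits, among them SDHA, NDUFS3, NDUFS7, COX6C and ATP5F1, values were not whole in at least 8 libraries, and their median was -0.23. Their levels are taken as uncertain. Whether shared reads gave these values was not tested, the assignment of shared reads being not given in the sources used here.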

How the data were processed

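The authors deposited 1 table of normalized mRNA values, treated here as signal: linear, never negative, with a floor of 1. Per the labels' protocols, poly(A) RNA (integrity number at least 7.5) was sequenced as 50 bp pairs. The aligner, build, counting and scaling were not given in the sources used here. Coordinates of 97.7% of gene models equalled the Sscrofa11.1 gene table, including 69 of the 71 members; those of NDUFB6 and ATP5E did not and are not printed. The value of 1 read in each library was inferred from its commonest values, with their number of reads assumed, and refined on whole multiples. Estimated reads were the sum of values divided by it. Of low values, 91.8% to 93.4% were whole (tolerance 0.05), so counts were not rebuilt.

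Values as log2(value + 1) were fitted with limma 3.58.1 (R 4.3.3) with an intensity trend and no covariate, over the 16819 genes above 1 in at least 7 libraries, with Benjamini-Hochberg adjustment and a threshold of 0.05. The script was tested on simulated data. The members and lists were chosen with earlier results of these data known. Named were, per complex, the 3 smallest p and the extreme differences, isoform pairs, extreme SDs and each list's smallest p. NDUFS8, NDUFA5, NDUFC1, subunits of F1, COX5B, COX6B, COX6C, TFAM and others were added after their values were seen. A further subunit is counted but not reported here by name. Replicate numbers follow record order and pair nothing. Each library is 1 animal, so SDs are the spread between animals. The SE of a difference is the one limma gives, with variance information shared across genes.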

Additional observations from a re-analysis of the deposited data

Results flagged for a closer look

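Of 56 sets of values within a group, 10 had a highest or lowest library far from the others by Dixon's test at the 95% level; chance flags about 1 in 20 groups, and these sets share libraries and genes. In high iCrit replicate 7 the mean over all subunits was 0.70 (next library 0.16, log2 from the mean of the 15 libraries), complex I 0.713, complex IV 0.844 and complex V 0.702. The same library held 3055 for NDUFA7 (next 2077), 5341 for NDUFB9 (next 3583), 4584 for COX7A2 (next 2956) and 8245 for ATP5G3 (next 4630). In low iCrit replicate 2 the complex II mean was -0.559 (next -0.091) and SDHA was 3472 (next 5294).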

How the results depend on the processing

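Limma called 0 subunits in each of the 25 settings run. The number of subunits at an unadjusted p under 0.05, 14 with all libraries, was 9 under quantile normalization, 9 without the intensity trend, 4 with estimated reads as a covariate, 5 without the 3 libraries apart (low iCrit replicate 2, high iCrit replicates 7 and 8), 5 without low iCrit replicate 2 and high iCrit replicate 7 (a setting chosen after seeing the data), and 5 to 17 leaving out 1 library at a time. Single libraries that moved it by over 1.5 times were, in the low iCrit group, replicate 3 (5 without it) and replicates 2 and 4 (6 each), and in the high iCrit group replicates 1 and 7 (6 each) and replicate 4 (7). Over all 69 subunits, 18 had a positive difference without the 3 libraries and 17 without the pair, against 2 with all libraries. Among the 22 subunits named by rule, those that changed sign were NDUFA4 at 0.0054, SDHB at 0.0763, SDHD at 0.0608, ATP5G1 at 0.0388 and ATP5S at 0.0770 without the 3 libraries; SDHB at 0.0738, SDHD at 0.0388, UQCRB at 0.0102, ATP5G1 at 0.0186 and ATP5S at 0.0182 without the pair; leaving out 1 library at a time, SDHB ranged from -0.1145 to 0.0121, SDHD from -0.0798 to 0.0161, NDUFA4L2 from -0.2798 to 0.0456 and ATP5S from -0.1336 to 0.0166 (positive without low iCrit replicate 2 for the SDH genes, high iCrit replicate 1 for NDUFA4L2 and low iCrit replicate 6 for ATP5S). Of the list medians, that of complex II was 0.0212 without the 3 libraries and 0.0050 without the pair, and without the pair the electron carriers had 0.0142 and the tricarboxylic acid cycle 0.0146. The cause was not tested. No paired analysis was possible because replicate numbers were given in record order and link no animals across groups.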
